A study of Mus musculus with 6 samples.

Results

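The myostatin and activin pathway was followed in mouse muscle through 10 genes, the ligands Mstn, Gdf11 and Inhba, the ligand inhibitor Fst, the receptors Acvr2a, Acvr2b and Acvr1b, and the signal carriers Smad2, Smad3 and Smad7. They were picked by gene symbol: every probe set of the array, a group of short probes designed against 1 transcript, that the platform annotation gives to 1 of these genes alone was taken. This found 19 probe sets for 9 of the 18193 named genes, among 45037 probe sets tested. Mstn was not analysed here, since no probe set carries that symbol in the annotation used. A further probe set, 1457451_at, carries both Orc4 and Acvr2a and is kept apart. RNA came from 3 muscle samples labelled SIRT6 knockout (KO) and 3 labelled wild type (WT), each hybridized to its own Affymetrix mouse genome array. SIRT6 removes acetyl groups from histones in a reaction that uses NAD. Both groups were on the 129SvJ background. The sources used here do not give which muscle was taken, the ages of the mice, or how the Sirt6 allele was made. The replicates are labelled biological, and with nothing more said of them the p-values measure the spread between these samples.

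Myostatin and its close relative Gdf11, and the activins built from Inhba subunits, are secreted dimers of the TGF-beta family, and myostatin and activin A are known to restrain muscle mass. They bind the type II receptors Acvr2a or Acvr2b, which bring in and switch on a type I receptor such as Acvr1b (ALK4), and this kinase phosphorylates Smad2 and Smad3. With Smad4 these move into the nucleus and act on target genes. Follistatin, the product of Fst, traps the ligands outside the cell, while Smad7 blocks the activated type I receptors inside it.

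Several facts of the whole series bear on every value below. Markers of muscle fibres were bright in all arrays, with 9 of 9 measured and single values of 1590.1 to 10562.5 in KO arrays and 1788 to 17905.4 in WT arrays. The only named Sirt6 probe set, 1429631_at, read 22.6, 18.3 and 13.7 in the KO arrays, against 23.2, 15.1 and 21.3 in the WT arrays. Its position relative to the deletion is unknown, so the probe set cannot serve as a check of genotype, and KO and WT below stand for the labels. Xist, the RNA of the inactive X chromosome, averaged 237.5 ± 14.7 in KO arrays and 1.87 ± 1.39 in WT arrays (SD, n = 3 each) at 1427262_at. Of the 7 Y-linked probe sets with a WT mean of at least 16, 6 were lower in every KO array than in any WT array. Genotype and sex therefore cannot be told apart in any comparison here. Relative to WT replicate 2, spiked hybridization controls were at 1.91 in WT replicate 1 and at 0.977 to 1.02 in the 3 KO arrays and WT replicate 3. Of the probe sets of an array, 51.7% to 60.3% read below 16.

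None of the 19 member probe sets passed the threshold of an adjusted p of 0.05 (limma, Benjamini-Hochberg over all 45037 probe sets), where 0.00888% of all probe sets did. Differences are given as KO minus WT on the log2(intensity + 16) scale, on which changes of dim probe sets are understated. At an unadjusted p under 0.05 there were 4 member probe sets, or 21.1%, against 8.56% of all probe sets. All 4 were lower in KO arrays, the direction in which 4.99% of all probe sets had such a p, and they belong to Smad3 (3 probe sets of 1 gene, so not independent) and Inhba. In 3 member probe sets, or 15.8%, every KO array lay below every WT array, against 7.29% of all probe sets, and in 0 did every KO array lie above, against 5.02%. Of the 3 without overlap, 2 belong to Smad3 and 1 to Inhba. The median difference was 0.0036 over the 19 member probe sets and -0.0078 over all probe sets, with 10 of the 19 higher and 9 lower on average in KO arrays. Of the 19, 8 read 16 or more in all 6 arrays, 8 in some arrays and 3 in none.

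**Figure D1:**
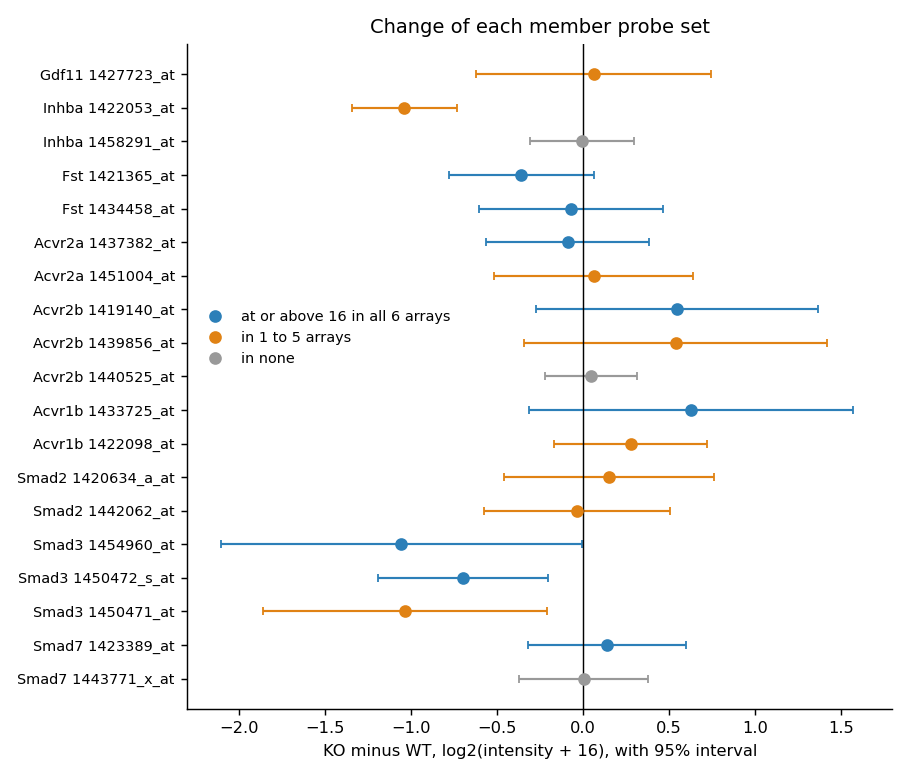
Difference between KO and WT arrays for each of the 19 member probe sets on the log2(intensity + 16) scale (horizontal axis), with limma's 95% interval. Points are coloured by the number of arrays at or above an intensity of 16, and the intervals of the 3 Smad3 probe sets and of Inhba 1422053_at alone lie wholly below 0.

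The ligand genes were represented by Inhba and Gdf11. Inhba encodes the subunit that pairs with itself to form activin A. At its brighter probe set, 1422053_at, it read 5.2, 5.7 and 6.6 in the KO arrays, against 29.5, 24.2 and 33.4 in the WT arrays. The groups did not overlap, and the 3 KO values lay close together well below the lowest WT value. The means were 5.83 ± 0.709 in KO arrays and 29.0 ± 4.62 in WT arrays (SD, n = 3 each), a ratio of deposited intensities of 0.201. The difference was -1.04 on the log2(intensity + 16) scale (SE 0.13, 95% interval -1.34 to -0.73). Its unadjusted p of 9.86e-05 was the lowest of the member probe sets, but limma's adjusted p was 0.247. All 3 KO values were below the offset of 16, so the size depends on the offset, and the difference was -2.13 with an offset of 1 and -0.41 with an offset of 64. In a test limited to the 22518 probe sets above the median level, which kept 15 of the 19 member probe sets and called 0.351% of all those tested, limma's adjusted p was 0.0621. Inhba 1422053_at entered that test through its WT arrays alone, with a mean log2(intensity + 16) of 4.45 in KO arrays and 5.49 in WT arrays against a filter level of 4.79, so this p gives no support to a difference. The other Inhba probe set, 1458291_at, read 0.9, 3.3 and 1.4 in KO arrays, against 0.6, 1.8 and 3.5 in WT arrays. It was below 16 in every array and the groups overlapped.

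Gdf11, best known for patterning the axial skeleton in the embryo, had 1 probe set, 1427723_at, at 19.7, 4.6 and 20.9 in KO arrays and 15.7, 19 and 5.5 in WT arrays. Each group held 1 array far below its other 2, and the difference of 0.06 (95% interval -0.62 to 0.75, limma adjusted p = 0.979) was smaller than the spread within either group. On this scale the interval spans 0.65-fold to 1.68-fold of the WT level.

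The promoter windows of Inhba and Smad3 are shown because these genes hold all 4 member probe sets with the lowest p-values. They come from RefSeq on GRCm38.p6 and run from 250 bases before to 50 bases after the annotated start, 5′ to 3′ on the gene's strand, with CpG dinucleotides in capitals. The Inhba window is chr13:16011601-16011900 on the plus strand, and the Smad3 window is chr9:63757945-63758244 on the minus strand.
Inhba: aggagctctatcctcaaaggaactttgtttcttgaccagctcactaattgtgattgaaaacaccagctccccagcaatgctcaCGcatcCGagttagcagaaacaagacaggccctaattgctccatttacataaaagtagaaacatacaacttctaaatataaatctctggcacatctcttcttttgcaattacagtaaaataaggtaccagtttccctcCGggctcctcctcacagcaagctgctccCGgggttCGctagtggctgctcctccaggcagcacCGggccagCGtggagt
Smad3: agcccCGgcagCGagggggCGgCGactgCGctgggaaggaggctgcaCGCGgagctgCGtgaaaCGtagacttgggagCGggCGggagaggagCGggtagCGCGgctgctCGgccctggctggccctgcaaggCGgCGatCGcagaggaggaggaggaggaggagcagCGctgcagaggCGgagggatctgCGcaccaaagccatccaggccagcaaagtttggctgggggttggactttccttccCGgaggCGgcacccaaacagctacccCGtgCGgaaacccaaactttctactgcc
The Inhba window holds 7 CpG dinucleotides and 47.7% G and C, where the median of all 32851 windows in the table is 7 and 52.7%. The Smad3 window holds 25 CpG dinucleotides and 67.7% G and C, and 18.4% of all windows hold at least as many. Promoter windows were found for 6 of the 9 measured members. The other 4 hold 27 (Acvr2b), 36 (Gdf11), 51 (Acvr1b) and 54 (Acvr2a) CpG dinucleotides, so the Inhba window has the fewest of the 6. A search on both strands for the letters CAGAC (a Smad box), TGANTCA (an AP-1 site), CANNTG (an E-box) and GTAAACA (a FoxO site) matched neither printed window. These motifs occur in 49.6%, 7.81%, 72.3% and 3.65% of all windows, in that order, and the absence of the letters applies to these windows alone.

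Fst, the inhibitor of the ligands, read 39.3, 48.6 and 32.7 in KO arrays at 1421365_at, against 70.2, 46.3 and 52.2 in WT arrays. KO replicates 1 and 3 lay below all WT arrays, while KO replicate 2 lay above WT replicate 2. The means were 40.2 ± 7.99 in KO arrays and 56.2 ± 12.4 in WT arrays (SD, n = 3 each), a difference of -0.36 (95% interval -0.78 to 0.06, limma adjusted p = 0.628). The second probe set, 1434458_at, read 43.9, 25.2 and 18 in KO arrays and 28.5, 26.1 and 35.9 in WT arrays. Here KO replicate 1 was the highest of the 6 arrays and KO replicate 3 the lowest, with a difference of -0.07 (95% interval -0.60 to 0.46).

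The receptor genes differed in how their KO arrays spread. Acvr2b, which encodes the type II receptor that binds myostatin with high affinity, read 29.5, 87.6 and 91.5 in KO arrays at 1419140_at, against 43.6, 44 and 29.3 in WT arrays. KO replicates 2 and 3 lay above every WT array and KO replicate 1 lay level with the lowest WT array. A second probe set, 1439856_at, gave 17.7, 62.3 and 54 in KO arrays and 11.4, 30.5 and 31.3 in WT arrays, with the same KO array low. The differences were 0.55 (95% interval -0.27 to 1.37) and 0.54 (95% interval -0.34 to 1.42), with limma adjusted p-values of 0.703 and 0.733. At 1419140_at the difference was 0.95 when KO replicate 1 was left out, against 0.36 for replicate 2 and 0.33 for replicate 3. The third probe set, 1440525_at, read 4.1 to 5.1 in KO arrays and 3.1 to 4.8 in WT arrays, below 16 throughout.

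Acvr2a, the other type II receptor of the pathway, was nearly level at 1437382_at, with 95.3, 105.3 and 88.3 in KO arrays and 143, 88.9 and 85.4 in WT arrays. WT replicate 1, the array with the bright hybridization controls, stood above the other 5, which lay between 85.4 and 105.3. The difference was -0.09 (95% interval -0.56 to 0.39, limma adjusted p = 0.947), and without WT replicate 1 it was 0.12. Its dimmer probe set, 1451004_at, read 20.3, 5.8 and 23.6 in KO arrays, against 16.1, 10.5 and 16.3 in WT arrays, which overlapped. The probe set shared with Orc4, 1457451_at, read between 2.4 and 7.3 in all arrays.

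Acvr1b, the type I receptor kinase, read 116.6, 136.4 and 356.7 in KO arrays at 1433725_at, against 124.3, 128.7 and 84.3 in WT arrays. KO replicate 3 stood far above the other 5 arrays, KO replicate 2 just above the highest WT array and KO replicate 1 within the WT range. The means were 203 ± 133 in KO arrays and 112 ± 24.5 in WT arrays (SD, n = 3 each), a difference of 0.63 (95% interval -0.31 to 1.57, limma adjusted p = 0.704). Without KO replicate 3 the difference was 0.17. The other probe set, 1422098_at, read 19.4, 22.5 and 30.9 in KO arrays and 24.8, 15.3 and 12.1 in WT arrays, with KO replicate 3 again the highest array.

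**Figure D2:**
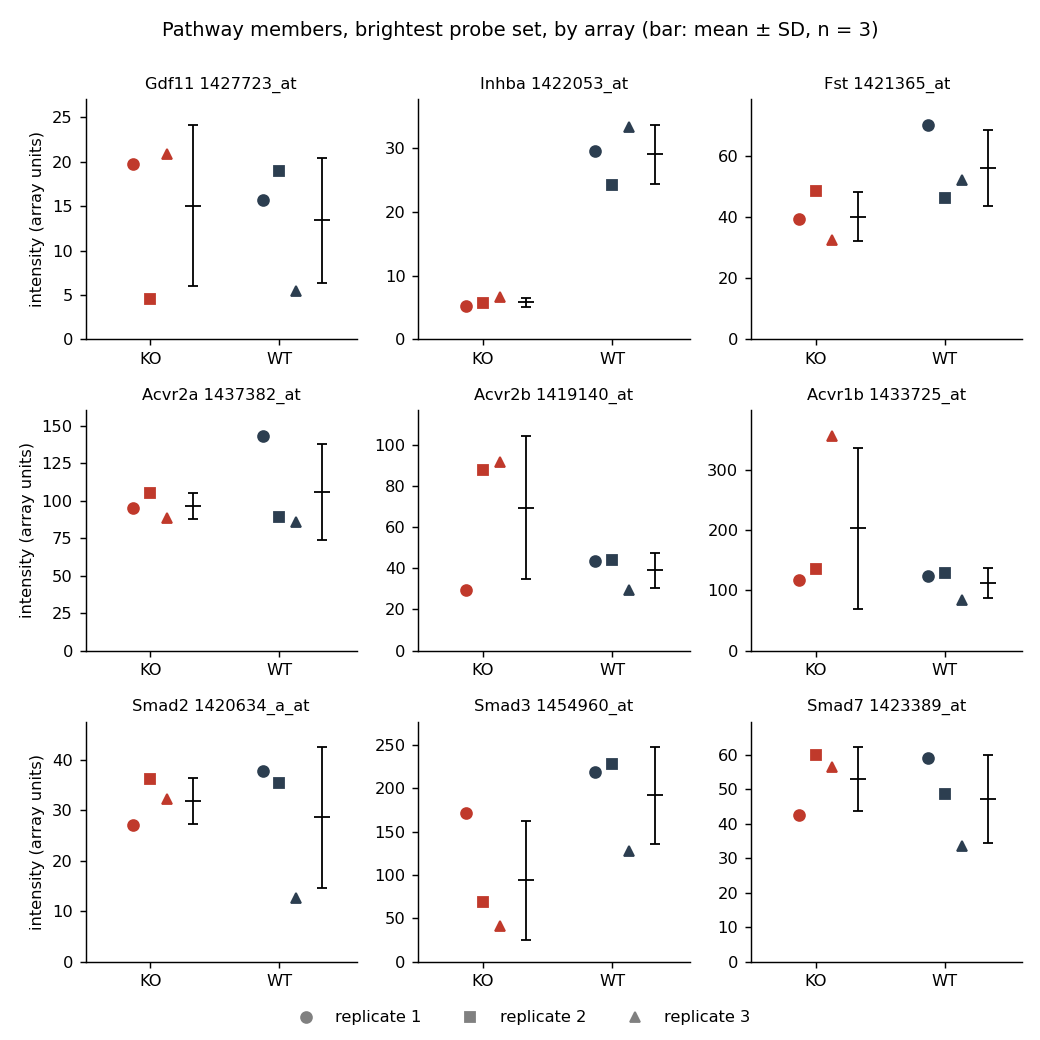
Deposited intensity (vertical axis, array units, separate scale for each gene) of the brightest probe set of each of the 9 measured members in the 3 KO and the 3 WT arrays, with bars for the mean ± SD. Inhba separates the groups with KO arrays at 5.2 to 6.6 and WT arrays at 24.2 to 33.4, while Acvr1b is highest in KO replicate 3, at 356.7, and Acvr2b is high in KO replicates 2 and 3.

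Among the Smads, Smad3 had lower KO averages at all 3 of its probe sets. Smad3 and Smad2 are the transcription factors that the type I receptor phosphorylates. At its brightest probe set, 1454960_at, Smad3 read 171.4, 68.7 and 41.7 in KO arrays, against 218.8, 228.3 and 127.7 in WT arrays. KO replicates 2 and 3 were below every WT array, whereas KO replicate 1 lay within the WT range. The means were 93.9 ± 68.4 in KO arrays and 192 ± 55.5 in WT arrays (SD, n = 3 each), a difference of -1.06 (SE 0.44, 95% interval -2.11 to -0.0057, limma adjusted p = 0.583).

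At 1450472_s_at, whose suffix marks probes that match several transcripts, Smad3 read 62.3, 30.6 and 40.7 in KO arrays and 90.4, 71.6 and 78.7 in WT arrays. At 1450471_at it read 27, 12.9 and 1.2 in KO arrays, against 54.4, 43 and 28.3 in WT arrays. In both, all KO arrays were below all WT arrays, narrowly so at 1450471_at between KO replicate 1 (27) and WT replicate 3 (28.3). The differences were -0.70 (95% interval -1.19 to -0.20, limma adjusted p = 0.529) and -1.04 (95% interval -1.86 to -0.21, limma adjusted p = 0.556). The 3 probe sets read 1 gene in the same RNA and are not separate evidence.

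KO replicate 1 was nearest to the WT arrays at all 3 Smad3 probe sets, at -0.11, -0.29 and -0.40 from the WT mean on the log2(intensity + 16) scale. KO replicate 2 stood at -1.25, -1.04 and -0.98 and KO replicate 3 at -1.81, -0.76 and -1.73 at the same probe sets. Without KO replicate 1 the 3 differences were -1.53, -0.90 and -1.35 (limma adjusted p = 0.187, 0.173 and 0.205), and without KO replicate 3 they were -0.68, -0.67 and -0.69. At 1450471_at the difference also moved with the offset, to -2.13 with an offset of 1 and -0.45 with an offset of 64.

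**Figure D3:**
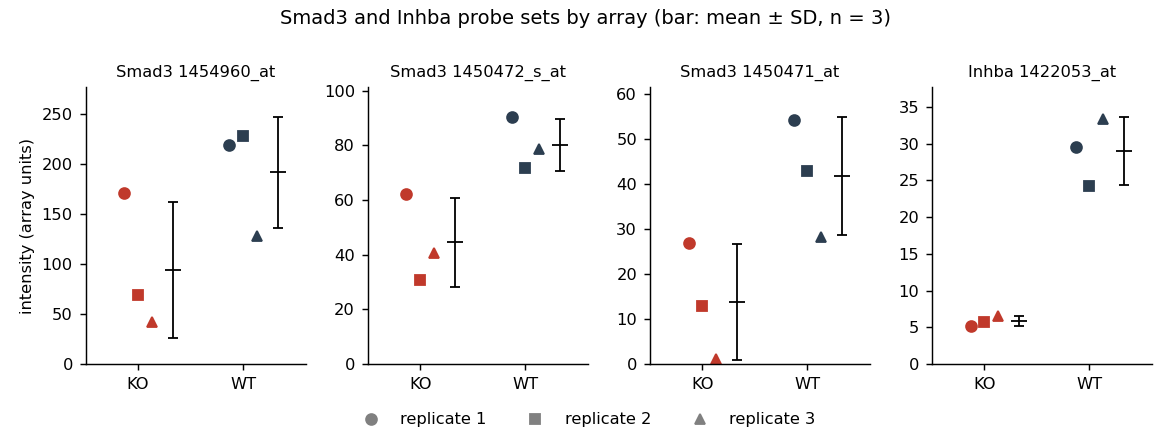
Deposited intensity (vertical axis, array units) of the 3 Smad3 probe sets and of Inhba 1422053_at in the 3 KO and the 3 WT arrays, with bars for the mean ± SD. KO replicate 1 is the highest KO array at each Smad3 probe set, whereas the 3 KO arrays lie together for Inhba, at 5.2 to 6.6.

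Smad2, the partner of Smad3 in receptor signalling, had overlapping groups at both probe sets. Its brighter probe set, 1420634_a_at, read 27.1, 36.1 and 32.3 in KO arrays, against 37.8, 35.3 and 12.6 in WT arrays. WT replicate 3 was the lowest of all 6 arrays, and the difference was 0.15 (95% interval -0.46 to 0.76, limma adjusted p = 0.919). The dimmer one, 1442062_at, read 9, 13.4 and 9.9 in KO arrays and 16.3, 16.8 and 3.3 in WT arrays, again with WT replicate 3 lowest. Whether Smad3 and Smad2 differ from each other in their response was not tested.

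Smad7, the inhibitory Smad and itself a target of the pathway, read 42.6, 60.1 and 56.4 in KO arrays at 1423389_at, against 59.1, 48.8 and 33.7 in WT arrays. The groups overlapped, with a difference of 0.14 (95% interval -0.32 to 0.60, limma adjusted p = 0.891). The other probe set, 1443771_x_at, of a class prone to cross-hybridization, read 4.2 to 10.4 over the 6 arrays.

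Seen by array, the members did not share 1 pattern. The lower Inhba level was common to KO replicates 1, 2 and 3, at -1.08, -1.05 and -0.99 from the WT mean on the log2(intensity + 16) scale. Smad3 and Acvr2b differed from the WT mean in opposite directions in KO replicates 2 and 3, and both lay closer to it in KO replicate 1. Acvr1b 1433725_at stood at 0.07, 0.27 and 1.56 in KO replicates 1, 2 and 3. WT replicate 3 was the low WT array for several members, at -0.58 for Smad2 1420634_a_at, -0.49 for Smad3 1454960_at and -0.33 for Smad7 1423389_at.

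**Figure D4:**
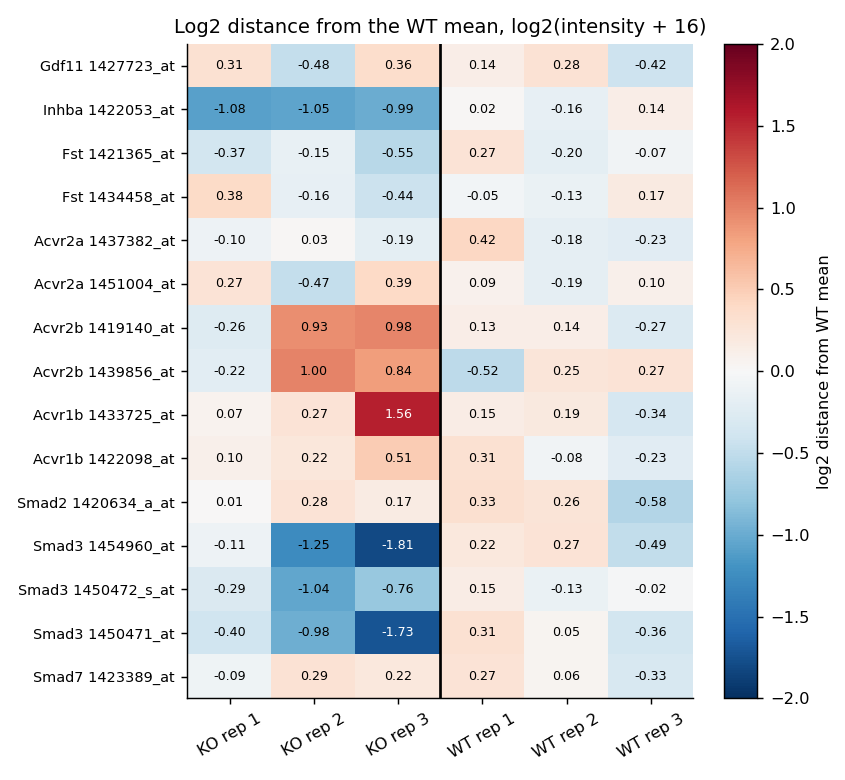
Log2 distance of each array (columns) from the WT mean for the 15 member probe sets (rows) that reached 16 in at least 3 arrays, on the log2(intensity + 16) scale, blue below and red above. The Inhba 1422053_at row is blue in all 3 KO arrays, at -1.08 to -0.99, while the Smad3 rows deepen in KO replicates 2 and 3 and the Acvr2b rows turn red there.

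Other genes of the pathway were taken from 7 lists, with 70 of 74 genes measured, each by its brightest probe set. None passed limma's adjusted threshold. At an unadjusted limma p under 0.05 there were 12 (17.1%), against 9.8% of all named genes taken the same way. Of these 12, 5 were higher and 7 lower in KO arrays. All 5 higher genes came from a single list, the muscle size genes, and all 7 lower genes from the other lists. The pooled share therefore does not show an excess spread over the lists. KO arrays lay below all WT arrays for 8 of the 70 (11.4%), against 8.33% of the 18193 named genes. They lay above all WT arrays for 6 (8.57%), against 4.51%, and most of these 6 were also muscle size genes. The median difference of all named genes was -0.018.

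Of the 9 related ligands, 5 were higher and 4 lower on average in KO arrays (median 0.035). Inhbc, Inhbe, Gdf3 and Nodal had a mean intensity below 16, where directions mean little. Tgfb2 and Tgfb3, isoforms of TGF-beta, had all KO arrays below all WT arrays, and Nodal and Inhbe had all KO arrays above. Tgfb3 read 54.3, 40.9 and 33.4 in KO arrays, against 102.5, 76.9 and 57.9 in WT arrays (difference -0.68, limma adjusted p = 0.541). Tgfb2 read 27.3, 35.5 and 12.1 in KO arrays, against 71.4, 47.2 and 38.8 in WT arrays (difference -0.76, limma adjusted p = 0.564), and all 4 of its probe sets were lower on average. Nodal, an embryonic ligand, was dim, at 15.9, 19.6 and 15.8 in KO arrays and 13.3, 12.8 and 11 in WT arrays (difference 0.22, limma adjusted p = 0.652), and 1 of its 2 probe sets had that direction. Inhbe, an activin subunit gene known from liver, read 16.5, 19.7 and 17 in KO arrays, against 11.1, 13.2 and 15.1 in WT arrays. Inhbb, which encodes the subunit of activin B, averaged 46.1 ± 12.4 in KO arrays and 31.1 ± 19.5 in WT arrays (SD, n = 3 each), with WT replicate 1 alone low at 9.1.

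The 9 related receptors had 5 higher and 4 lower members (median 0.050), with Acvr1c and Bmpr1b at a mean below 16. Tgfbr1, the type I receptor for TGF-beta, which also signals through Smad2 and Smad3, read 102.9, 155.3 and 200.5 in KO arrays, against 122.2, 96 and 70.9 in WT arrays. KO replicates 2 and 3 were above all WT arrays (difference 0.57, limma adjusted p = 0.611). Tgfbr3, a co-receptor, read 134.8, 267.7 and 256.2 in KO arrays, against 167.5, 134.5 and 99.3 in WT arrays, with KO replicates 2 and 3 again above. Acvr1, a type I receptor that serves BMPs, read 34.5, 42.1 and 22.2 in KO arrays, against 63.4, 46.8 and 31.5 in WT arrays. Acvr1c, the type I receptor ALK7, read 11.4 to 16.4 in KO arrays and 7.9 to 15.4 in WT arrays, which overlapped.

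Extracellular regulators were lower on average for 12 of 16 genes (median -0.11), where 9684 of all 18193 named genes were lower. Of the 16 genes, 8 had a mean intensity below 16, where directions mean little. Fstl1, a secreted follistatin-like protein, read 235.1, 293.1 and 91.1 in KO arrays, against 409.8, 366.9 and 347.4 in WT arrays (difference -0.94, limma adjusted p = 0.577). Ltbp2, a matrix protein of the latent TGF-beta binding family, read 6.9, 7.3 and 4.8 in KO arrays, against 26.2, 18.2 and 10.1 in WT arrays. Both had all KO arrays below all WT arrays. Tll1, a protease of the BMP1/tolloid family, was dim at 0.9 to 4.6 in KO arrays and 3.5 to 11 in WT arrays. Fstl3, a follistatin relative, stayed at 1.7 to 2.3 in KO arrays, against 1.9 to 9.9 in WT arrays.

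Among 13 other Smads and Smad regulators, 10 were higher and 3 lower on average (median 0.16). Smad4, the common partner of the receptor-regulated Smads, read 220.9, 315.4 and 523.1 in KO arrays, against 191, 246.6 and 176.7 in WT arrays. KO replicates 2 and 3 were above all WT arrays and 3 of 3 probe sets were higher on average (difference 0.67, limma adjusted p = 0.602). Smad6, an inhibitory Smad of the BMP branch, lay the other way with no overlap, at 23, 14.6 and 19.6 in KO arrays and 36.2, 29.7 and 24.7 in WT arrays (difference -0.40, limma adjusted p = 0.572). Nedd4l, a ubiquitin ligase for Smad2 and Smad3, read 54.8, 98.9 and 132.7 in KO arrays, against 63.7, 74.1 and 44.6 in WT arrays, and 4 of its 6 probe sets shared that direction.

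Smad7, a target gene of Smad2 and Smad3, was counted with the members alone and was higher on average (difference 0.14). The target genes listed without it were lower on average for 6 of 9 (median -0.49). Of the 9, 2 had all KO arrays below all WT arrays. These were Col1a1, a chain of type I collagen, at 1561.8, 1444.4 and 503.2 in KO arrays, against 3557.2, 1830.3 and 3115.3 in WT arrays, and Pmepa1, a feedback inhibitor of the pathway. Pmepa1 read 23.1, 42.6 and 39.6 in KO arrays, against 78.7, 43.6 and 49.3 in WT arrays, a narrow gap between KO replicate 2 and WT replicate 2. Cdkn2b, a cell cycle inhibitor, was dim, at 1.3 to 8.6 in KO arrays and 6.9 to 18.3 in WT arrays. BMP target genes were split, with 4 of 6 higher (median 0.16), and Id2 and Id4 had a mean below 16. Id1, a helix-loop-helix factor induced by BMPs, read 143.1, 246 and 165.5 in KO arrays and 161.7, 92.4 and 46 in WT arrays, with KO replicate 2 the highest array. Id2, of the same family, averaged 6.90 ± 4.06 in KO arrays and 15.1 ± 7.09 in WT arrays (SD, n = 3 each), but 1 of its 3 probe sets had that direction.

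Of 11 listed muscle size genes, 9 were higher on average in KO arrays (median 0.73), where 8509 of all 18193 named genes were higher. Whether the pathway acts on these genes here was not tested. Foxo1, a transcription factor of muscle wasting, read 101, 163 and 248.9 in KO arrays, against 76, 71.2 and 62.5 in WT arrays (difference 1.05, limma adjusted p = 0.524). Cdkn1a, a cell cycle inhibitor, read 151.1, 626.5 and 1117.8 in KO arrays, against 85.6, 108.1 and 37.1 in WT arrays (difference 2.50, limma adjusted p = 0.529). Fbxo32, the ubiquitin ligase atrogin-1, read 143.7, 1296.6 and 4078.5 in KO arrays, against 135.7, 75.9 and 55.5 in WT arrays (difference 3.25, limma adjusted p = 0.556). In Foxo1, Cdkn1a and Fbxo32, KO replicate 1 was the KO array nearest to the WT arrays and KO replicate 3 the farthest.

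**Figure D5:**
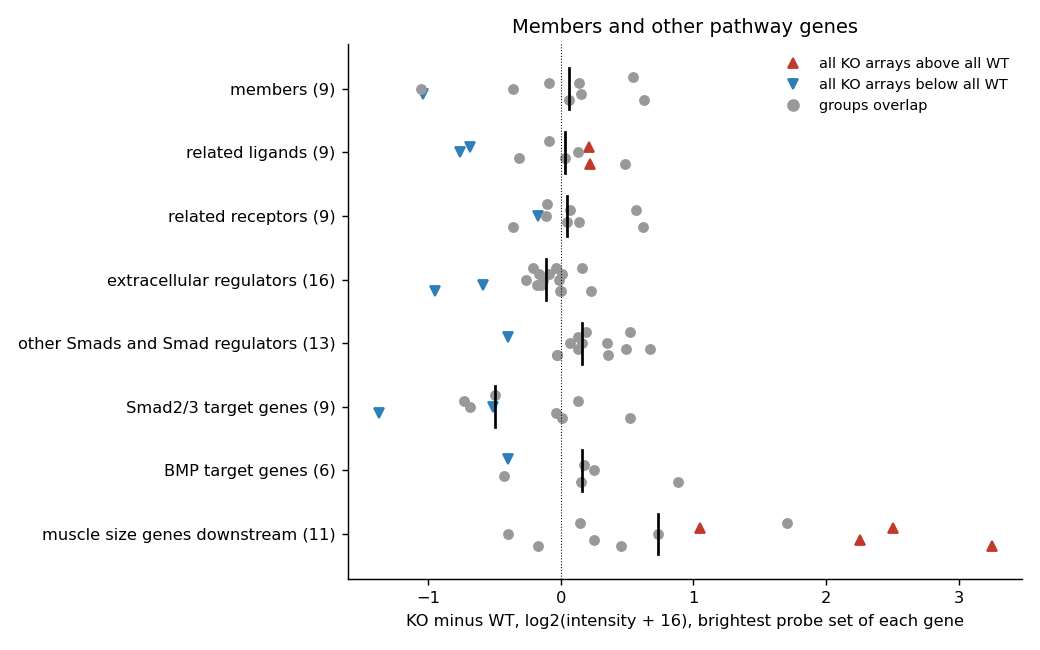
Difference between KO and WT arrays on the log2(intensity + 16) scale (horizontal axis) for the 9 members and the genes of 7 pathway lists, each gene by its brightest probe set, with a black bar at the median. Triangles mark genes whose groups do not overlap, and none of the genes shown passed limma's adjusted threshold.

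Most markers of connective tissue cells were also lower on average beside the Inhba, Smad3 and Col1a1 values. Of 7 fibroblast markers, 6 were lower on average in KO arrays, Dcn at 1 of its 2 probe sets. The exception, Pdgfra, read 67.5, 155.6 and 99.6 in KO arrays, against 86.7, 67.1 and 59.4 in WT arrays. The summed intensity of the 7 was 3275.2 to 6814.8 in KO arrays and 6558.4 to 11239.2 in WT arrays. Of these 7, Dcn, Col1a1 and Col3a1 also stand in the pathway lists above and carry most of the sum. The other 4 summed to 652, 721.1 and 395 in KO arrays, against 1276.3, 696.6 and 898 in WT arrays, which overlapped. Of 5 tendon markers, 5 were lower on average, with sums of 272.6 to 338 in KO arrays and 380 to 784.2 in WT arrays. Smooth muscle markers summed to 278.5 to 547.8 in KO arrays and 787.6 to 1149.8 in WT arrays, with 4 of 5 lower on the log2 scale. Acta2 and Smtn carry most of that sum. Tagln averaged higher in KO arrays (46.3 against 35.7), and Myh11 was nearly level (24.1 against 23.2). Adipocyte markers summed to 318.6 to 512 in KO arrays and 999.7 to 1688.6 in WT arrays, with 5 of 5 lower on the log2 scale, although Cidec averaged 75.4 in KO arrays and 73.7 in WT arrays. Among them Ucp1, the uncoupling protein of brown fat, read 129.9, 5.9 and 2.3 in KO arrays, against 877.2, 570.3 and 586.1 in WT arrays. Without Ucp1 the adipocyte sums overlapped, at 188.7, 382.1 and 509.7 in KO arrays and 811.4, 429.4 and 422.9 in WT arrays. No marker of these lists read 0 in any array. Scx and Mkx (tendon), Cnn1 (smooth muscle) and Lep (adipocyte) had a mean intensity below 16, where directions mean little. Of all 18193 named genes, 9684 were lower on average. In whole muscle, fewer cells of a type and less RNA per cell cannot be told apart, and the part of these cells in the Inhba and Smad3 values was not tested.

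Slow fibre markers were higher on average in KO arrays for 6 of 6 genes (median difference 1.09), 2 of them with an unadjusted limma p under 0.05 and 0 past the adjusted threshold. Their summed intensity was highest in KO replicate 2 and stood at 1202.2 to 5392.6 in KO arrays and 527.7 to 1672.2 in WT arrays. Of all 18193 named genes, 8509 were higher on average, and 9.8% had an unadjusted limma p under 0.05 in either direction. Endothelial (330.3 to 594.2 and 356.3 to 448.1), macrophage (279.2 to 459.2 and 336.8 to 526.1), satellite cell (110.4 to 124.4 and 86.5 to 112.7), blood (36.3 to 69.6 and 47.7 to 82.9) and Schwann cell marker sums (296.8 to 551.5 and 247.1 to 373.7) overlapped between KO and WT arrays, in that order. The satellite cell sum rests on few bright genes, since Pax7, their defining factor, read 1.3 to 17.9 over the 6 arrays. Single genes of these lists did separate the groups. Myf5 (satellite cell, with a mean below 16) and Cd163 (macrophage) had all KO arrays above all WT arrays. S100b (Schwann cell) had all KO arrays below, and none of these genes passed limma's adjusted threshold. The 3′ to 5′ ratio of the Gapdh control, a sign of RNA quality, was 0.811 to 0.846 in KO arrays and 0.827 to 0.835 in WT arrays.

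The genes whose levels over the 6 arrays were most like each member were found among 4551 named genes with a mean of at least 64, for the 6 members with a mean of at least 32. With 6 arrays and so many genes, correlations near 1 arise readily, and these are descriptions alone. For Smad3 1454960_at they were 2310040G24Rik, Slc37a4 and Ptgr2 (Pearson r = 0.992, 0.991 and 0.989), and Slc37a4, a glucose-6-phosphate transporter, read 724.4, 309.6 and 182.9 in KO arrays, against 1025.5, 917.5 and 645.4 in WT arrays. For Acvr2b they were Ktn1, Trim3 and Prdm2 (r = 0.994, 0.994 and 0.993). For Acvr1b they were Brix1, Exosc10 and the proteasome subunit gene Psmd3 (r = 0.996, 0.993 and 0.993), and Psmd3 read 197.9, 260 and 544.6 in KO arrays, against 225.5, 218.2 and 159.1 in WT arrays. The closest gene was S100a10 for Fst (r = 0.999), Babam2 for Acvr2a (r = 0.993) and Nup85 for Smad7 (r = 0.997).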

How the data were processed

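The deposited table holds 1 linear intensity per probe set and array for 6 arrays. Per the labels' protocols, total RNA was isolated with TriPure and carried a biotin label. How the authors scaled the deposited intensities, and with what software, is not given in the sources used here. Of 45101 probe sets, 64 controls were left out. Intensities were taken as log2(value + 16) without further normalization and tested with limma 3.58.1 (lmFit and eBayes, two-sided) in R 4.3.3, KO against WT, and adjusted over all 45037 probe sets by Benjamini and Hochberg's method. Precision is limited by having 3 arrays in a group.

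The platform annotation gave 1 symbol for 34945 probe sets, of which 34741 matched the RefSeq gene table by gene ID and took its current symbol. A gene stands for its brightest probe set (highest mean log2 value) where 1 value is given. All probe sets of the members were reported. From each list of other pathway genes the 3 with the lowest p were named, with Smad4, Acvr1, Acvr1c, Tgfbr1, Fstl3 and Inhbb. Ucp1, Pax7 and the control genes are marker or control genes. Ucp1, Cidec, Inhbe, Pdgfra, Acta2, Smtn, Tagln, Myh11, Myf5, Cd163 and S100b were singled out after their values were seen. So were the sums without Ucp1 or without pathway genes. Slc37a4 and Psmd3 were also picked for printed values after the likeness search. Inhbc, Gdf3, Bmpr1b, Id4, Scx, Mkx, Cnn1 and Lep are named because their mean is below 16. Members and lists were chosen with earlier results of these data known. The test was checked on simulated data. Alternatives changed the normalization (quantile, median centring), the offset (1, 64), the variance model, the threshold (0.01), the replicate block, the arrays kept and the probe sets kept, or averaged the probe sets of each gene.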

Additional observations from a re-analysis of the deposited data

How the results depend on the processing

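The count of member probe sets past the threshold was 0 under each single change of setting (limma), including each array left out, probe sets averaged per gene and a threshold of 0.01. Without adjustment, 4 had a p under 0.05. The differences of Inhba 1422053_at, Fst 1421365_at and all probe sets of Smad3, Acvr2b and Acvr1b kept their sign under each of these changes in which they were tested (Acvr2b 1440525_at was not in the filtered test), with limma adjusted p-values of 0.0621 to 0.813 for Inhba 1422053_at and 0.187 to 0.880 for Smad3 1454960_at. Combinations of the above-median filter with another choice, chosen after seeing the data, gave 0 to 5 member probe sets with each array left out. The 5 came without KO replicate 1 (Inhba 1422053_at, 3 of Smad3 and Acvr2b 1419140_at), where 1350 of 22518 probe sets passed. Inhba 1422053_at alone passed without KO replicate 3 (adjusted p = 0.0196) and with a trended and robust variance (1 member, adjusted p = 0.0335), and 0 members passed with the other combinations. Inhba 1422053_at passed the filter through its WT arrays alone. Its calls under the filter, the one without KO replicate 1 included, are therefore no support for a difference. Smad3 1450471_at had a mean log2 value of 4.795 in the 3 KO arrays, barely above the filter level of 4.791. KO replicate 1 was its highest KO array, so the KO mean without that array lies below this level. The call of Smad3 1450471_at without KO replicate 1 is therefore no support for a difference either.

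Over all probe sets the count of 4 became 9 with quantile normalization, 11 with median centring, 79 with the filter, 15 with a trended and robust variance, 0 with the replicate block (limma) and 1 with an offset of 64, and 1 to 6 with each array left out. Under the filter the count was 28 after quantile normalization, 41 with median centring, 88 with a trended and robust variance, 85 with the replicate block, and 8 to 1350 with each array left out, 1350 without KO replicate 1 and 312 without KO replicate 3. Same-numbered KO and WT arrays did not deviate together (correlations of -0.057, 0.026 and -0.057 across probe sets). With so few arrays and many dim probe sets, these values cannot decide whether the numbers pair the mice, and the labels do not say.

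Differences near 0 changed sign with single arrays left out, over -0.15 to 0.33 for Gdf11, -0.064 to 0.053 for Inhba 1458291_at, -0.30 to 0.11 for Fst 1434458_at, -0.20 to 0.12 for Acvr2a 1437382_at, -0.10 to 0.33 for Acvr2a 1451004_at, -0.14 to 0.32 for Smad2 1420634_a_at, -0.29 to 0.097 for Smad2 1442062_at, -0.024 to 0.27 for Smad7 1423389_at and -0.080 to 0.13 for Smad7 1443771_x_at. Inhba 1458291_at turned to 0.015 with median centring, Smad2 1442062_at to 0.0013 with quantile normalization and 0.082 with an offset of 1, and Smad7 1443771_x_at to -8.1e-05 with an offset of 64. The cause was not tested. Signal limits 11 of the 19 member probe sets, which read below 16 in at least 1 array.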
